A study of Mus musculus with 21 samples.

Results

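The transcriptional regulators of mitochondrial content that centre on the PGC-1 coactivators were examined in the gastrocnemius of trained and untrained mice. The set was chosen by gene symbol and holds 10 of the 40853 genes counted. It comprises the coactivators Ppargc1a, Ppargc1b and Perm1, the estrogen-related receptors Esrra, Esrrb and Esrrg, the peroxisome proliferator-activated receptors Ppara and Ppard, nuclear respiratory factor 1 (Nrf1) and mitochondrial transcription factor A (Tfam). All 10 were among the 16129 genes that passed the filter on low counts.

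RNA was taken from the whole medial belly of the gastrocnemius of 21 female C57BL/6NJ mice, an inbred strain, which were 10 weeks old when the protocol began. The 7 Inactive mice stayed in standard housing for 6 weeks, and the 7 Active mice ran on a treadmill for 6 weeks, on 5 days a week in sessions of 40 minutes, which opened with a slower warm-up and went on at about 70% of maximal speed, for a time that was lengthened over the first weeks. The 7 Activity Reduction mice trained in the same way for 4 weeks and were then inactive for 2 weeks. Mice of every group ran a maximal test between 48 and 72 h before collection and were fasted, so the Inactive mice had also run. Each library came from 1 mouse, and as muscle is a mixture of cells, fewer cells of a type and less RNA per cell cannot be told apart in these values.

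PGC-1 coactivators bind no DNA themselves. They are recruited to promoters by nuclear receptors such as the ERRs and PPARs and by NRF1, and they raise transcription of genes for fatty acid oxidation, the tricarboxylic acid cycle and the respiratory chain, including Tfam, whose protein packages and transcribes mitochondrial DNA. In muscle, Ppargc1a is known for a brief rise after an exercise bout, PPARs act as heterodimers with retinoid X receptors, and ERRγ is known for its high level in slow, oxidative fibres.

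Promoter sequence is shown for Esrra and Esrrg, the related receptors whose levels in the Activity Reduction group stood on opposite sides of those in the Inactive group (values given further on). The windows are the 250 bases before a transcription start in RefSeq on build GRCm38.p6, printed 5′ to 3′ on the gene's own strand. Capitals mark a match to GCATGCGC, part of the NRF1 motif, in the Esrra window chr19:6921809-6922058 (minus strand). In the Esrrg window chr1:187608756-187609005 (plus strand), which is 1 of 4 RefSeq windows of that gene, they mark a match to the consensus site of MEF2 factors.
Esrra: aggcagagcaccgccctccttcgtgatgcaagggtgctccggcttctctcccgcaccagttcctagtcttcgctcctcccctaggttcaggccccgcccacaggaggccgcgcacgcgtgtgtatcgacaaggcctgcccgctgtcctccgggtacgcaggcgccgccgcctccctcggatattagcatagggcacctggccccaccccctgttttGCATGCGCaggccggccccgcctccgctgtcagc
Esrrg: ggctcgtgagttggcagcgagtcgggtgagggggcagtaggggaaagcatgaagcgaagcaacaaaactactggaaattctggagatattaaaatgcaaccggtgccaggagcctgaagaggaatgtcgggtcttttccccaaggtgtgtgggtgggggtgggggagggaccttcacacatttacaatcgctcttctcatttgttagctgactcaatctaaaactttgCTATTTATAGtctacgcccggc

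The Esrra match begins 34 bases before the start and the Esrrg match 22 bases before it. Windows were searched on both strands for 6 motifs, and each share below is that among all 32851 mouse windows of the same length. The NRF1 sequence GCATGCGC was in 2.26% of all windows and, among the 9 members with a window, also in that of Ppara. There it was read as overlapping matches, GCGCATGC and GCATGCGC, 31 and 29 bases before the start. The MEF2 consensus was in 2.92% of all windows and, besides Esrrg, in that of Nrf1. The ERR half-site AAGGTCA was in 4.08% of all windows and in that of Perm1, read there as TGACCTT on the gene's strand, 202 bases before the start. The ETS core ACCGGAAGT, which GA-binding proteins recognise, was in 0.804% of all windows and in that of Tfam, 48 bases before the start. The full ERR element TCAAGGTCA (0.387% of all windows), which contains the half-site, and the CREB site TGACGTCA (1.55%) were in no member window. These are matches of letters and not measured binding. The table held no window for Ppargc1b.

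Libraries held between 38482455 and 59785132 counts on genes, with 38482455 to 49211581 in the Active group and 49284630 to 59785132 in the Inactive group. Transcripts of 24 liver genes divided the libraries into 8 with more (882 to 2596 CPM in sum, which are counts scaled to the library total) and 13 with fewer (206 to 415 CPM). The 8 came from 5 Active, 2 Activity Reduction and 1 Inactive mice and carried the lowest animal numbers. All 24 genes were counted in every library. These sets are called the 8 and the 13 libraries, and values within them are given for the regulators described. The muscle identity genes were counted in every library and summed to between 76356 and 85056 CPM, although 1 of these 6, Mylpf, the fast regulatory light chain, was listed at only 113 to 149 normalized counts on average in the 3 groups. Of the genes that share exonic bases with a member on the opposite strand, Trmt112 covers 29.6% of the exonic bases of Esrra and Cdpf1 27.4% of those of Ppara. The strand setting of the counting is not given in the sources used here, so reads in these stretches cannot be assigned with certainty.

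On a per-length scale (normalized counts per kb of exon, mean ± SD over 21 mice), the levels of the regulators spanned a wide range. The length was the union of all exons of a gene in GENCODE, whether or not they are used in muscle. The SDs are over mice and hold no uncertainty in this length. Perm1, a muscle-specific coactivator induced by PGC-1 and ERR, stood first with 2236 ± 195 counts per kb, followed by Esrra with 1051 ± 112 and Tfam with 443 ± 31.3. These 3 were separated from each other and from the rest by more than their SDs. Ppargc1a (240.3 ± 24.4), Ppara (215 ± 32.8), Ppard (198 ± 18.7), Ppargc1b (188 ± 24.5) and Esrrg (183 ± 33.8) followed as a run in which each neighbour lay within 1 SD of the next. Nrf1 (55.0 ± 4.13) and Esrrb (52.6 ± 9.50) were lowest and did not differ beyond their spread. Of the ERR family, Esrra was therefore the main transcript in this muscle by count per kb, and Esrrb the least. The coefficient of variation over the 21 mice, into which differences between the groups enter, ranged from 7.06% for Tfam to 18.5% for Esrrg.

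**Figure D1:**
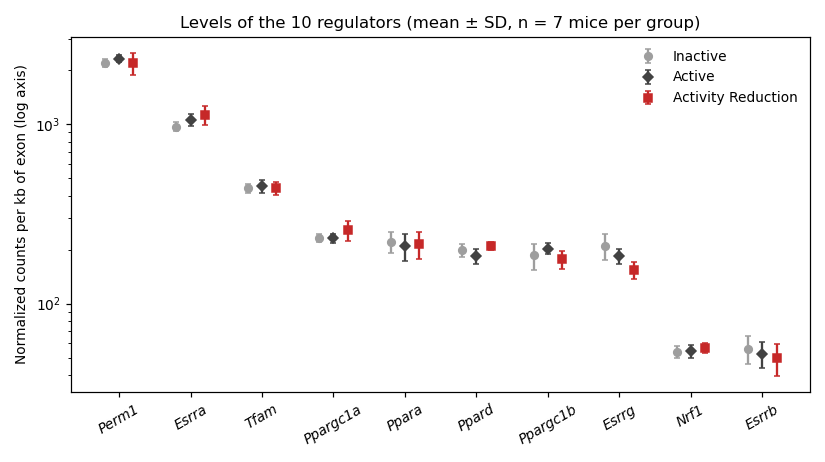
Level of each regulator in the 3 groups, as normalized counts per kb of exon on a log axis (points are means of 7 mice, bars are SD). Perm1, Esrra and Tfam stand above the others, Nrf1 and Esrrb below them, and the Esrrg means step down from Inactive to Active to Activity Reduction.

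With edgeR's quasi-likelihood test and Benjamini-Hochberg adjustment over 16129 genes, 0 of the 10 regulators passed the thresholds (adjusted p-value under 0.05 and log2 fold change over 0.25) in any of the 3 comparisons. Few genes of any kind did: 0% of all genes for Active compared to Inactive, 0.0124% for Activity Reduction compared to Inactive and 0% for Activity Reduction compared to Active. At an unadjusted p-value under 0.05 the same test counted 0 of 10 regulators in the first comparison (10.9% of all genes), 3 of 10 in the second (7.73%) and 4 of 10 in the third (13.3%). The median log2 fold change of the 10 was 0.00, 0.01 and -0.00 in the same order, against 0.01, 0.01 and -0.00 over all genes tested. The comparisons share groups, so a member's values in them are not independent. The members were also chosen with earlier results of these data known, so the shares serve as a scale and not as a test.

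Training was compared first. In the Active group, Ppargc1a, which encodes PGC-1α, held 1630.0 ± 99.1 normalized counts (SD, n = 7) with a lowest, median and highest mouse of 1516, 1640.3 and 1797, against 1649 ± 88.3 in the Inactive group with 1544, 1666 and 1798. The groups covered nearly the same range, with a log2 fold change of -0.01 and a 95% interval of -0.14 to 0.12. The tissue was taken 48 h or more after the last run, and no earlier time was measured.

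Perm1 held 10435 ± 569 normalized counts in the Inactive group (lowest 9627, median 10546.5, highest 11002) and 11049 ± 499 in the Active group (10427, 11038 and 11842). Of the Active mice, 4 of 7 lay above every Inactive mouse. The difference on the log2 scale was 0.09 (SE 0.0644, edgeR adjusted p = 0.637 by the quasi-likelihood test), and a two-sided exact permutation test of the means gave p = 0.0542. The log2 ratio of Perm1 was 0.16 within the 13 libraries and 0.04 within the 8, and fitted with the liver set as a covariate its log2 fold change was 0.18 (edgeR adjusted p = 0.465). Ppargc1b, the PGC-1β gene, held 1072 ± 178 normalized counts in Inactive mice (795, 1095 and 1356) and 1170.0 ± 81.2 in Active mice (1060.0, 1191 and 1301). The groups overlapped throughout, and the log2 fold change of 0.13 had an interval of -0.05 to 0.31. The log2 ratio of Ppargc1b was 0.28 within the 13 libraries (2 Active, 6 Inactive), whereas it was -0.25 within the 8, against a single Inactive mouse.

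Esrra encodes ERRα, which is a partner of PGC-1α and regulates genes of oxidative metabolism. It held 4839.7 ± 288 normalized counts in the Inactive group (lowest 4313, median 4885, highest 5188) and 5270.2 ± 392 in the Active group (4556, 5382 and 5643). Of the Active mice, 6 of 7 were above the Inactive median and 4 above every Inactive mouse. The log2 fold change was 0.13 (SE 0.0628, unadjusted edgeR p = 0.0508, adjusted p = 0.460), and the exact permutation test, two-sided, gave p = 0.0402 before any correction for the 30 such tests made. The log2 ratio was 0.20 within the 13 libraries and 0.10 within the 8.

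Esrrg encodes ERRγ. Its normalized counts in Active mice (1143 ± 114; lowest 919, median 1151, highest 1298) were below the Inactive median in every mouse, and the Inactive mice held 1306 ± 221 (1054, 1300.2 and 1715). The log2 fold change was -0.19 (SE 0.0931, edgeR adjusted p = 0.475), and the exact permutation p was 0.104. The sign differed between the sets, with a log2 ratio of -0.20 among the 13 libraries and 0.10 among the 8, where 1 Inactive mouse was compared. Ppard had a log2 fold change of -0.10 (95% interval -0.22 to 0.02), with -0.12 within the 13 libraries and 0.09 within the 8, and Ppara, Esrrb, Tfam and Nrf1 ranged from -0.08 to 0.04.

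**Figure D2:**
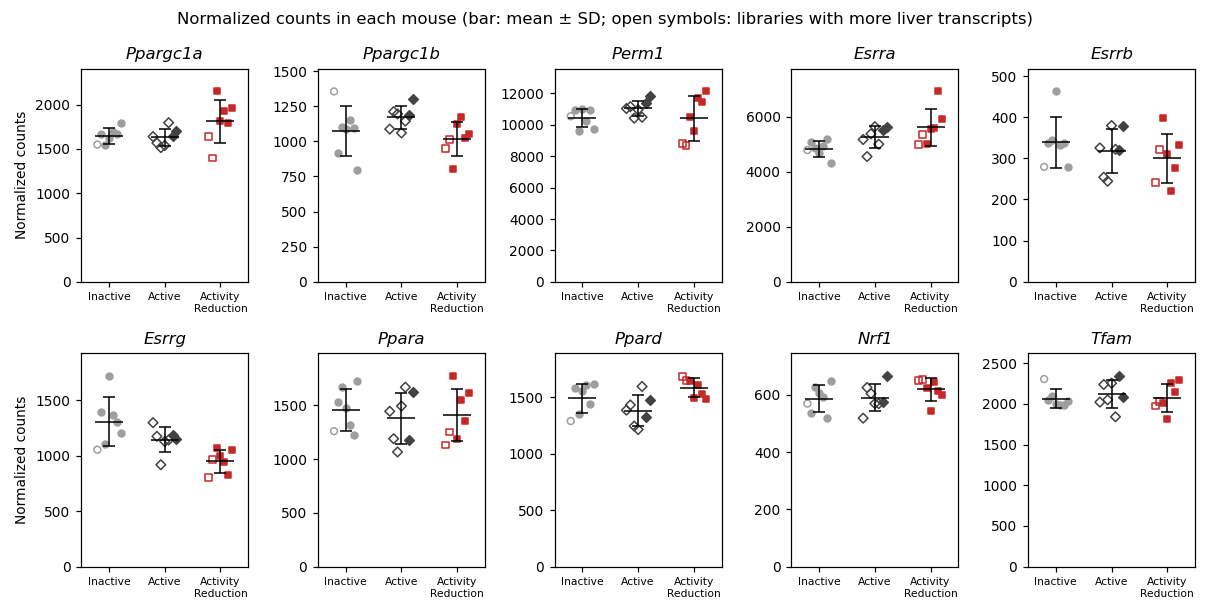
Normalized counts of the 10 regulators in each of 7 mice per group, with the mean ± SD (each panel starts at 0; open symbols are the 8 libraries with more liver transcripts). Esrrg is lowest in the Activity Reduction group (801 to 1072), Esrra is highest there (4979 to 6925), and Tfam and Nrf1 overlap throughout.

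The Activity Reduction and Inactive groups were compared to see what remained or appeared after training had stopped. Here the differences of Esrrg and Esrra had opposite signs. Esrrg held 951 ± 105 normalized counts (lowest 801, median 969, highest 1072) in the Activity Reduction group, against 1306 ± 221 in the Inactive group. Of the Activity Reduction mice, 6 of 7 lay below every Inactive mouse, and the groups overlapped only through Activity Reduction replicate 3 (1072) and Inactive replicate 1 (1054). The fitted change was -26.9%, or -0.45 on the log2 scale with a 95% interval of -0.64 to -0.27.

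Esrrg ranked 8 of 16129 genes by p in that comparison (unadjusted p = 7.45e-05), yet its adjusted p was 0.134 with edgeR's quasi-likelihood test and Benjamini-Hochberg adjustment. The exact permutation test, two-sided, gave p = 0.00117, where the smallest it can give is 0.000583. With DESeq2, the tool of the authors, Esrrg fell by 0.46 on the log2 scale and passed, with adjusted p = 0.00187 in the fit of the 3 groups and 0.00448 in the fit of these 2 groups. DESeq2 called 0.252% and 0.302% of the genes to which it gave an adjusted p in those fits of this comparison, and Esrrg was its only call among the 10 regulators. The call by adjusted p thus depended on the tool, while the fold change did not.

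The log2 ratio of Esrrg was -0.46 within the 13 libraries (5 Activity Reduction, 6 Inactive) and -0.25 within the 8 (2 against 1). Under edgeR, its adjusted p did not pass with the liver division as a covariate (0.119, log2 fold change -0.43) or in the 13 libraries alone (0.213, log2 fold change -0.46). With the covariate in DESeq2, a setting chosen after seeing the data, that tool gave an adjusted p of 0.00142 and called 0.276% of genes, and with only the 13 libraries it gave 0.00305 and called 0.393%. Leaving out 1 mouse at a time moved the edgeR log2 fold change between -0.50 and -0.38 and its adjusted p between 0.0740 and 0.421.

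Esrra held 5617 ± 668 normalized counts (4979, 5542 and 6925) in the Activity Reduction group. All 7 of these mice were above the Inactive median of 4885, and 5 were above every Inactive mouse. The difference was 0.22 on the log2 scale (95% interval 0.10 to 0.34), and by p it ranked 93 of 16129 genes. It did not pass, with adjusted p = 0.344 by edgeR's quasi-likelihood test and 0.106 by DESeq2 on the 3 groups. The exact permutation p was 0.00524, two-sided, and the log2 ratio was 0.26 within the 13 libraries and 0.11 within the 8. Trmt112, which shares exonic bases with Esrra, held 815 ± 23.7, 764 ± 73.3 and 801 ± 63.1 normalized counts in the Inactive, Active and Activity Reduction groups, and its log2 fold change in this comparison was -0.02.

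The ratio of Esrra to Esrrg counts within each mouse, a quantity chosen after the values were seen and given without a test, was 3.79 ± 0.607, 4.66 ± 0.676 and 5.99 ± 1.17 in Inactive, Active and Activity Reduction mice. Its lowest Activity Reduction mouse (4.66) was above its highest Inactive mouse (4.54), and the Active mice (3.88 to 5.86) lay across both. Neither gene alone separated these groups. Ratios of other gene pairs were not examined, so how often a ratio separates the groups is not known. The means in the 13 libraries were 3.66, 4.76 and 6.04 in the same order.

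**Figure D3:**
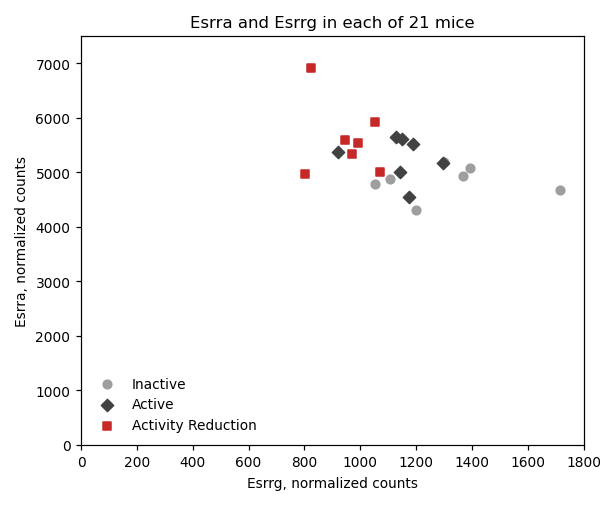
Normalized counts of Esrra against Esrrg in each of 21 mice, with both axes from 0. The Activity Reduction mice lie to the left of most others, at 801 to 1072 for Esrrg, and reach the highest Esrra value of 6925.

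Ppargc1a held 1811 ± 242 normalized counts (1399, 1810.4 and 2150.2) in the Activity Reduction group. The spread was wider than in the Inactive group, with 4 of 7 mice above every Inactive mouse and 1 below every Inactive mouse. Its log2 fold change was 0.14 (95% interval 0.01 to 0.27, edgeR adjusted p = 0.644), and the exact permutation p was 0.127. Without Activity Reduction replicate 3, its highest mouse, it was 0.09. The sets of libraries differed, with a log2 ratio of 0.21 among the 13 and -0.03 among the 8.

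The other coactivators differed in sign or size between the sets of libraries. Perm1 held 10413 ± 1412 normalized counts (8684, 10469 and 12131), with a log2 fold change of 0.0015, an interval of -0.12 to 0.13 and an SD larger than that of either other group. Its log2 ratio was 0.09 within the 13 libraries and -0.27 within the 8, where 2 mice were compared with 1. Ppargc1b held 1019 ± 121 (799.7, 1023 and 1171), a log2 fold change of -0.07, with ratios of 0.01 and -0.47 in the same sets. Ppard, the PPARδ gene, was at 0.09 (0.03 and 0.37 in the sets), Nrf1 at 0.08 (0.04 and 0.20) and Ppara at -0.04 (0.01 and -0.08).

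Tfam had a log2 fold change of 0.01 in this comparison, with an interval of -0.10 to 0.12 and ratios of 0.05 and -0.20 within the 13 and the 8 libraries. Its normalized counts were 2065 ± 112 in the Inactive, 2118 ± 170 in the Active and 2072 ± 170 in the Activity Reduction group (SD, n = 7). Nrf1 likewise held 586 ± 47.5, 589 ± 47.0 and 618 ± 38.9, with every group between 518 and 664. Esrrb, the ERR best known from pluripotent cells, held 339 ± 61.2, 317.8 ± 53.3 and 300.2 ± 59.9 normalized counts, and its log2 fold change of -0.17 had an interval of -0.43 to 0.09 (-0.18 and 0.01 in the sets).

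**Figure D4:**
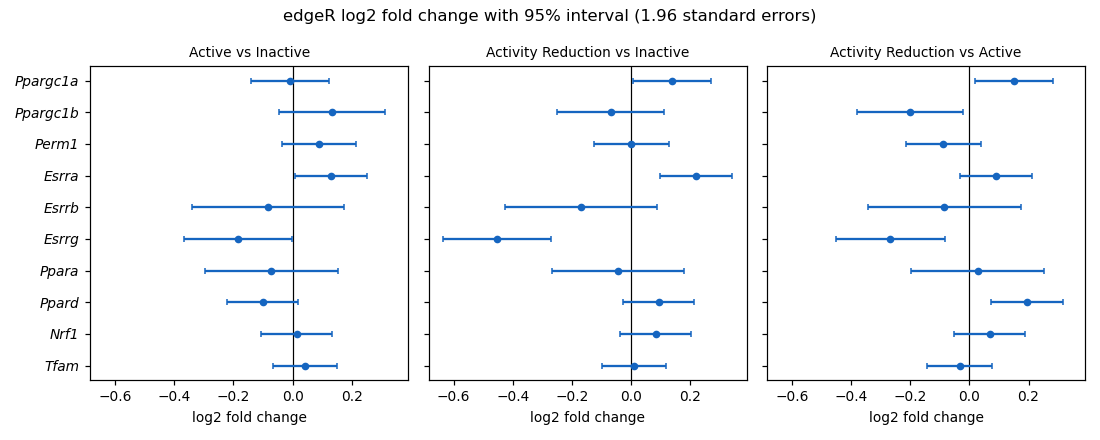
edgeR log2 fold change of each regulator in the 3 comparisons (points), with 95% intervals from the standard errors that are not adjusted for multiple tests. Esrrg lies furthest from 0 in the comparison of Activity Reduction with Inactive (-0.45), where Esrra lies on the other side (0.22).

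The Activity Reduction and Active groups, which differed in whether the last 2 weeks included training, were compared last. Esrrg had a log2 fold change of -0.27 (SE 0.0936, edgeR adjusted p = 0.219), and 6 of 7 Active mice lay above every Activity Reduction mouse. Its exact permutation p was 0.00758, two-sided, and the log2 ratio was -0.26 within the 13 libraries and -0.36 within the 8. The Esrra difference was 0.09, with an interval of -0.03 to 0.21, and it was 0.03 without Activity Reduction replicate 6 and 0.04 once the liver set was a covariate.

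Ppard, whose protein drives fatty acid oxidation in muscle, held 1489.7 ± 130.2 normalized counts in the Inactive group (1289, 1551 and 1614), 1382 ± 134 in the Active group (1214, 1385 and 1595) and 1584 ± 81.6 in the Activity Reduction group (1487, 1607 and 1685). All 7 Activity Reduction mice were above the Active median and 4 above every Active mouse. Between these the log2 fold change was 0.20 (SE 0.0615, edgeR adjusted p = 0.180), with an exact permutation p of 0.00699. The direction was the same within both sets of libraries (0.15 and 0.28).

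For Ppargc1b, 5 of 7 Activity Reduction mice lay below every Active mouse. Its log2 fold change was -0.20 (edgeR adjusted p = 0.345), the exact permutation p was 0.0140, and the log2 ratio was -0.27 within the 13 libraries and -0.21 within the 8. Ppargc1a was at 0.15 (edgeR adjusted p = 0.341; 0.522 without Activity Reduction replicate 3). The coactivators PGC-1α and PGC-1β were thus on opposite sides of 0 here, although the difference between them was not tested, and for Ppargc1a the log2 ratio was 0.20 within the 13 libraries and -0.08 within the 8. Ppara, the PPARα gene, held 1456 ± 197, 1379 ± 236 and 1408 ± 241 normalized counts in the Inactive, Active and Activity Reduction groups and did not differ beyond its spread in any comparison.

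Genes around these regulators were examined as lists. In no comparison did a gene of the 7 pathway lists pass the adjusted threshold. The counts below are therefore at an unadjusted edgeR p under 0.05, with the shares of all genes given above as a scale. The lists, here and for fibres and other cells, were chosen with earlier results of these data known. The shares are thus no test of a list. Of 20 genes regulated by PGC-1 and ERR in the citrate cycle, respiratory chain and muscle energy supply, 2 were higher in Active than in Inactive mice (6.18% of all genes were higher) and 0 lower. These were Mb, which encodes myoglobin (log2 fold change 0.16, SE 0.0653), and Ckmt2, the mitochondrial creatine kinase (0.10, SE 0.0458), and the median of the list was 0.03. In Activity Reduction compared to Inactive mice 1 of 20 was higher (4.19% of all genes), the glucose transporter gene Slc2a4 (0.11, SE 0.0516), and compared to Active mice 1 was lower (6.44% of all genes), the succinate dehydrogenase subunit Sdhb (-0.09, SE 0.0412). Vegfa, Cs and Fndc5, which are often used to read out PGC-1 activity, differed by at most 0.11 on the log2 scale in any comparison.

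Of 19 PPAR target genes of fatty acid uptake and oxidation, 0 differed between the Active and Inactive groups at that level, and the median log2 fold change was -0.06. Among these, Cpt1b, the muscle carnitine palmitoyltransferase, was listed at only 96.7 to 101 normalized counts on average in the 3 groups, so its values, like those of Mylpf, are uncertain. In Activity Reduction compared to Inactive mice 2 of 19 were lower (3.54% of all genes were lower), lipoprotein lipase Lpl (-0.26, SE 0.102) and the trifunctional protein subunit Hadhb (-0.13, SE 0.0608), with a list median of -0.06. Compared to the Active group 0 of 19 differed. Pdk4, a widely used PPAR target, held 26353, 23358 and 23502 mean normalized counts in the Inactive, Active and Activity Reduction groups, with log2 fold changes of -0.17 and -0.16 from the Inactive group (SE 0.244 for both). The 4 receptor partners (Rxra, Rxrb, Rxrg and Pparg) and the 4 nuclear respiratory partners (Gabpa, Gabpb1, Gabpb2 and Yy1) gave 0 genes in every comparison.

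Among 13 genes of mitochondrial DNA transcription and replication, 3 were lower in Active than in Inactive mice, where 4.69% of all genes were lower. They were the mitochondrial RNA polymerase Polrmt (-0.14, SE 0.0496), the exonuclease Mgme1 (-0.15, SE 0.0555) and the topoisomerase Top1mt (-0.11, SE 0.0502), and the list median was -0.09. Mgme1 was also lower in Activity Reduction compared to Inactive mice (-0.16, SE 0.0555), as 1 of 13 where 3.54% of all genes were lower. Polrmt was higher in Activity Reduction than in Active mice (0.18, SE 0.0496), as 1 of 13 where 6.89% of all genes were higher. It held 1492 ± 82.7, 1350.5 ± 62.2 and 1532 ± 122 normalized counts in the Inactive, Active and Activity Reduction groups.

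Of 11 coregulators, the histone deacetylase Hdac3 and the deacetylase Sirt1 were lower in Active than in Inactive mice (-0.11, SE 0.0427, and -0.16, SE 0.0641), where 4.69% of all genes were lower. Between the Activity Reduction and Inactive groups 0 differed. Hdac3 and the corepressor Nrip1 were higher in Activity Reduction than in Active mice (0.14, SE 0.0427, and 0.25, SE 0.0920), where 6.89% of all genes were higher.

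The 21 factors upstream of Ppargc1a include CREB and its coactivators, MEF2 factors, calcium and AMP-activated kinases and TFEB. At that level 2 of 21 differed in each comparison, against 10.9%, 7.73% and 13.3% of all genes in the order used above, so the count was near that of all genes. In Active compared to Inactive mice the lysosomal regulator Tfeb was lower (-0.23, SE 0.0691) and its relative Tfe3 was higher (0.15, SE 0.0698). Tfeb was higher in Activity Reduction than in Active mice (0.28, SE 0.0691, edgeR adjusted p = 0.115), as was the calcineurin subunit Ppp3ca (0.11, SE 0.0460). Mef2d was higher (0.12, SE 0.0426) and Mef2a lower (-0.09, SE 0.0399) in Activity Reduction compared to Inactive mice. Medians of this list lay between -0.01 and 0.03.

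Transcripts of slow fibres were followed beside Esrrg. Of 7 slow and oxidative fibre genes, 4 were lower in Activity Reduction than in Inactive mice at an unadjusted edgeR p under 0.05 (3.54% of all genes were), the calcium pump Atp2a2 (-0.70, SE 0.209), slow myosin Myh7 (-0.74, SE 0.276) and the troponins Tnnt1 (-0.59, SE 0.237) and Tnnc1 (-0.65, SE 0.275). Compared to Active mice only Atp2a2 was lower at that level (-0.46, SE 0.208). Between the Active and Inactive groups 0 of 7 differed, with a median of -0.18. All 7 were counted in every library, and their sum was 4695 to 5649 CPM in the Inactive, 3875 to 5828 CPM in the Active and 3534 to 5164 CPM in the Activity Reduction group. Of 5 fast glycolytic fibre genes, only fast myosin Myh4 was higher in Active than in Inactive mice (0.19, SE 0.0712), where 6.18% of all genes were. The list median in that comparison was -0.006. Only Actn3 was higher in Activity Reduction than in Active mice (0.11, SE 0.0530), where 6.89% of all genes were, with a list median of 0.05. Between Activity Reduction and Inactive mice 0 of the 5 differed.

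The mean log2 CPM of the slow fibre list was 8.53 ± 0.104 in Inactive mice (8.36 to 8.65), 8.32 ± 0.426 in Active mice (7.40 to 8.64) and 7.86 ± 0.638 in Activity Reduction mice (6.76 to 8.45). The lowest mice were Activity Reduction replicates 4 (6.76) and 1 (7.29) and Active replicate 3 (7.40). With this mean as a covariate, again chosen after seeing the data, the Esrrg difference between the Activity Reduction and Inactive groups was -0.34 (edgeR adjusted p = 0.472), and that between the Activity Reduction and Active groups was -0.18. The Esrra difference from the Inactive group was 0.24 with the covariate. Whether the mix of fibres in the sampled belly contributed to the Esrrg values was not tested further.

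Covariation across mice was examined as 55 relations, the 45 pairs of regulators and each regulator with the slow fibre list, within the 13 and the 8 libraries. These sets hold mice of all groups, so group differences enter the coefficients. Esrrg and the slow fibre list gave the only relation with a permutation p under 0.05 after Benjamini-Hochberg adjustment, in the 8 libraries (Pearson's r = 0.936, exact permutation p = 0.000322, adjusted p = 0.0177; Spearman's rho = 0.929, p = 0.00223, adjusted p = 0.123). Without the 2 libraries farthest from the median of Esrrg r was 0.915. In the 13 libraries r was 0.468 (permutation p = 0.133, adjusted p = 0.563) and rho 0.753 (p = 0.00431, adjusted p = 0.121). There r was 0.498 without the 2 libraries farthest from the median of Esrrg. Those left still held Activity Reduction replicate 4, at 6.76 on the slow fibre list.

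Between regulators, no relation passed the adjustment in either set, and 6 of the 55 relations had a raw permutation p of r under 0.05 in each. Among them in the 13 libraries were Esrra with Esrrg (r = -0.709, adjusted permutation p = 0.186, rho = -0.654) and Perm1 with Esrra (r = 0.614, adjusted p = 0.255, rho = 0.747). In the 8 libraries these pairs had r of -0.106 and -0.151. The others in the 13 were Perm1 with Tfam (r = 0.701), Nrf1 with Ppara (0.691), Esrrb with Esrrg (0.642) and Ppargc1a with Ppard (0.588). Their r in the 8 libraries was 0.394, -0.625, 0.581 and 0.229 in the same order. The median r over the 55 relations was 0.0338 in the 13 libraries and 0.0234 in the 8, with coefficients on both sides of 0.

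**Figure D5:**
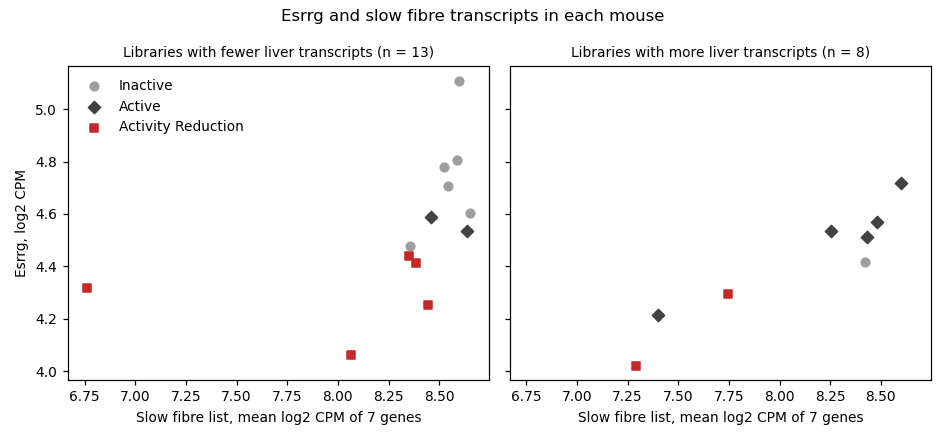
Esrrg (log2 CPM) against the mean log2 CPM of 7 slow fibre genes in each mouse, for the 13 libraries with fewer liver transcripts (left) and the 8 with more (right). In the 8 libraries the points follow a line (r = 0.936), and in the 13 the Activity Reduction mouse at 6.76 stands apart (r = 0.468).

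The genes whose levels followed a regulator most closely were sought among 12301 genes, by Pearson's r over the 21 libraries after the means of group and of liver set were removed. Genes are not independent replicates, and these coefficients are the highest of many and are descriptions only. For Ppargc1a they were Sucla2, a subunit of succinyl-CoA synthetase (r = 0.856), the glucose transporter gene Slc2a3 (0.803), Snora28 (0.783), Musk, the receptor kinase of the neuromuscular junction (0.762), and Fnbp1l (0.755). For Esrrg they were Pdlim1 (0.809), Gm16159 (0.803), Mad1l1 (0.733), Ino80d (0.722) and Aebp1 (0.714).

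Markers of other cells in the belly were also followed. In Active compared to Inactive mice 4 of 7 endothelial and 3 of 6 macrophage genes were higher at an unadjusted edgeR p under 0.05, as were 4 of 24 hepatocyte and 1 of 5 erythroid genes (6.18% of all genes), and 3 endothelial and 3 macrophage genes were lower in Activity Reduction than in Active mice (6.44% of all genes). All 7 and all 6 were counted in every library. Endothelial genes summed to 205 to 252, 218 to 293 and 191 to 229 CPM, and macrophage genes to 17.6 to 26.5, 20.05 to 30.2 and 12.1 to 23.9 CPM, in the Inactive, Active and Activity Reduction groups. Between the Activity Reduction and Inactive groups, where Esrrg differed most, 0 endothelial, 0 macrophage, 0 of 6 tested adipocyte and 0 of 24 hepatocyte genes differed at that level. Schwann cell and erythroid genes gave 1 of 6 and 2 of 5, all higher, as were 2 of 6 muscle identity genes (4.19% of all genes). The part of these cells in the values of the regulators was not tested.

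The regulators lie on 10 different chromosomes in GRCm39, all as protein-coding genes. Esrrg spans chr1:187340988-187947082, Esrra chr19:6888338-6899336, Perm1 chr4:156300325-156314305, Ppargc1a chr5:51611592-51725068, Esrrb chr12:86407887-86568409, Tfam chr10:71061287-71074110, Nrf1 chr6:30047892-30153462, Ppara chr15:85618656-85687067 and Ppard chr17:28451674-28520448. Ppargc1b lies on chromosome 18. Counts were made per gene, so they do not distinguish isoforms of Ppargc1a or the alternative starts of Esrrg.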

How the data were processed

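RNA of the gastrocnemius medial belly underwent poly(A) selection and paired-end sequencing. Per the labels and methods, the authors used fastp for trimming, STAR for alignment to GRCm39 and featureCounts for counting, and deposited raw counts of reads per gene with no normalization. Tool versions, annotation and strand setting are not given in the sources used here. A further table whose name says normalized counts was identical to the raw one and was not used. No column belonged to other samples.

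Counts were fitted with edgeR 4.0.16 in R 4.3.3 (filterByExpr, TMM, glmQLFit and glmQLFTest; 1 fit of 21 libraries, group means, Benjamini-Hochberg over all genes tested), with the thresholds of the study (adjusted p under 0.05, log2 fold change over 0.25, here taken on the log2 scale). The authors used DESeq2, which was run as an alternative (version 1.42.0). Normalized counts are raw counts divided by DESeq2 size factors, and log2 CPM of single genes used TMM scaling and a prior count of 1. The slow fibre mean instead used log2 of counts scaled to the library total, without TMM or a prior count. Single values were compared with two-sided exact permutation tests over all 3432 splits, computed with NumPy 2.4.6. SciPy 1.17.1 gave the ranks and the Benjamini-Hochberg adjustment of the correlations. The code was also run on simulated data, with the same spread for every gene and no liver sets. That run bears on the code only, and not on the difference between edgeR and DESeq2. Groups came from the labels. No 2 columns held identical values, and the labels do not say whether mice shared cages or days.

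Liver sets were split at the widest gap in the summed liver transcripts. Members and lists were chosen with earlier results of these data known. The text names all members, the list genes of smallest p (at most 3 per list and comparison, and others chosen after their values were seen), and the 5 genes most like Ppargc1a and Esrrg. Alternatives were DESeq2, median-ratio size factors, no filter, liver set, slow fibre level, replicate block and leaving out each mouse. Promoters came from RefSeq (GRCm38.p6) and gene positions from GENCODE (GRCm39), which were not mixed. Atp5f1b is listed under its older symbol Atp5b.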

Additional observations from a re-analysis of the deposited data

Results flagged for a closer look

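In 30 groups of 7 values (10 regulators in 3 groups), 2 held a mouse that stood apart from the rest by Dixon's criterion at the 95% level, and chance gives about 1 in 20 groups. Esrrb was highest in Inactive replicate 4 with 463 normalized counts, where the other 6 Inactive mice lay between 279 and 344. Tfam was highest in Inactive replicate 1 with 2304 normalized counts, where the others lay between 1988 and 2095. That mouse was also the only Inactive one among the 8 libraries with more liver transcripts. Whether that bears on its Tfam value was not tested.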

How the results depend on the processing

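Of 930 log2 fold changes of the 10 regulators under the alternatives, 870 kept their direction and their side of the thresholds, 56 reversed in 11 of the 30 results, and 4 passed where the reported value did not. These 4 were Esrrg in Activity Reduction compared to Inactive mice, under each of the 4 DESeq2 settings. Of 210 pathway list counts, 158 were within 1.5 times the reported count. Settings with DESeq2 on the 13 libraries or with the liver covariate, and with the slow fibre level as covariate, were chosen after seeing the data. Members past the adjusted thresholds in Activity Reduction compared to Inactive mice numbered 1 under DESeq2 on the 3 groups, on the 2 groups, with the liver covariate and on the 13 libraries. At an unadjusted p under 0.05, the count for Active compared to Inactive (0 reported) was 1 with DESeq2 on the 3 groups and with no filter, and 2 with DESeq2 on the 2 groups, with the slow fibre covariate, with the liver covariate and in the 13 libraries, the last 2 with either tool. Leaving out 1 mouse gave 0 to 3 for it, with 3 without Inactive replicate 1. The count for Activity Reduction compared to Active (4 reported) was 1 in the 13 libraries with either tool and 2 to 4 without 1 mouse, with 2 without Active replicate 2 or 3 or Activity Reduction replicate 3. For Activity Reduction compared to Inactive (3 reported) it was 2 to 3. Over all genes, DESeq2 on the 3 groups called 57, 23 and 117 genes in the 3 comparisons, and on the 2 groups 75, 44 and 132, against 0, 2 and 0 with edgeR. The cause was not tested.

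Reversed log2 fold changes lay within 0.1 of 0 except for Ppara with the slow fibre covariate. Perm1 in Activity Reduction compared to Inactive was -0.0030 (DESeq2, 3 groups), -0.0041 (2 groups), -0.0027 (median-ratio factors) and -0.0068 (no filter), and -0.046 to 0.040 without 1 mouse. With TMM-scaled CPM its exact permutation p was 0.984 with the means in the other order, and that of Perm1 in Active compared to Inactive was 0.0367. Ppargc1a in Active compared to Inactive was 0.088 (liver covariate), 0.012 (13 libraries), 0.085 and 0.0084 (the same with DESeq2), 0.018 (slow fibre covariate) and -0.038 to 0.010 without 1 mouse. Esrrb in that comparison was 0.028, 0.0096, 0.024 and 0.0055 under the first 4 of these settings and -0.13 to 0.0041 without 1 mouse, and Ppara was 0.039 and 0.036 with the liver covariate (edgeR, DESeq2). Nrf1 there was -0.016 to 0.042 without 1 mouse. In Activity Reduction compared to Inactive, Ppara was 0.0053 and 0.0063 in the 13 libraries and 0.16 with the slow fibre covariate, Ppargc1b was 0.011 and 0.012 in the 13 libraries, and Tfam was -0.024 to 0.039 without 1 mouse. In Activity Reduction compared to Active, Ppara was -0.059 and -0.060 with the liver covariate and -0.039 to 0.076 without 1 mouse, Nrf1 was -0.038 and -0.032 in the 13 libraries, and Tfam was 0.021 with the slow fibre covariate.

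Whether replicate numbers paired the mice cannot be told from these values. Of 21 same-numbered pairs, 7 had a correlation of deviations over 0.1, within a range of -0.234 to 0.438. The pairs of replicate 1 had 0.243, 0.438 and 0.310. With the replicate number as a block, 1 member had an unadjusted p under 0.05 in Active compared to Inactive, Perm1 was -0.0050 in Activity Reduction compared to Inactive, and 0, 4 and 0 genes of all tested passed the adjusted thresholds.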
